A study of Mus musculus with 6 samples.

Results

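Lipid-associated macrophages are a state of tissue macrophages found where cells die and spill fat, in adipose tissue, arterial plaque and the fatty liver. The state is named from a gene set that carries a lipid receptor, lysosomal proteins, lipid carriers and secreted proteins of the scar. In the liver such cells have been described beside Kupffer cells, the resident macrophages that carry the lectin receptor Clec4f, and they are thought to arise largely from recruited monocytes. The 10 genes followed here are Trem2, Gpnmb, Cd9, Spp1, Fabp5, Lpl, Mmp12, Atp6v0d2, Lgals3 and Msr1. They were taken by symbol from the 32285 genes of the deposited gene lists, where all 10 were found.

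Single nuclei RNA sequencing had been run on the livers of 6 male DIAMOND mice, a cross of 129A1/SvIm and C57BL/6J, with 2 mice in each of 3 groups. The diets began at 2 months of age. Ctrl mice ate standard chow for 40 weeks, Pre-T mice ate a Western diet, which is a high-fat diet given with sugar water, for 40 weeks and were taken before tumors developed, and Post-T mice ate the Western diet for 48 weeks and were taken after tumors had developed. The labels call the Post-T tissue both tumor and liver, so whether tumor, the liver around it or both were sampled is not known, and group, time on the diet and tissue cannot be told apart there. The labels name no allele or drug for any group, and each library is 1 mouse.

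The 6 libraries held 22453658 to 40307564 unique molecular identifier (UMI) counts, and 39012 of 41882 barcodes were kept as nuclei. Clusters named from marker genes, without any of the 10 genes, gave 2947 macrophages and 891 monocytes, with 5466 endothelial nuclei and 1236 T cells as background classes that should lack most of the set. The macrophages numbered 315 and 294 in Ctrl, 613 and 933 in Pre-T and 422 and 370 in Post-T, and the monocytes 26 and 40, 306 and 235, and 206 and 78. These sizes depended on the settings. Without the upper limit on genes per nucleus Post-T 1 had 28 macrophages and 783 monocytes. With clusters at a resolution of 2, Pre-T 2 had 2309 macrophages and Post-T 2 had 8 monocytes. The 18 macrophage markers all had UMIs in the macrophages of every mouse, apart from Marco in Pre-T 1, but their summed level, in UMIs per 1000000 UMIs of the class in that mouse (CPM), was 10175 to 13326 CPM in Ctrl, 8394 to 10254 in Pre-T and 3148 to 5976 in Post-T. Clusters holding 12541 nuclei stayed unnamed, most of them from Western-diet mice. Ctrl, Pre-T and Post-T macrophages lay largely in different clusters, so each comparison of groups below is also a comparison of clusters. Of 41700 different barcode sequences 181 occurred in more than 1 library, 2 of 3836 among macrophages and monocytes.

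A level below is the CPM of 1 mouse, which is the UMIs of a gene summed over the nuclei of a class and scaled to 1000000 UMIs of that class. Tests were edgeR's quasi-likelihood test on these sums, with a Benjamini-Hochberg adjusted p over all genes tested and a threshold of 0.05. Changes are log2 fold changes with their standard error (SE). Where values stand in pairs, replicate 1 of a group comes before replicate 2. CPM of different genes are not set against each other, since they are not levels per length. Counting intervals and floors cover counting error only.

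In macrophages, 9 of the 10 genes stood higher in both Pre-T mice than in both Ctrl mice, and Msr1 did not. The same was true of 33.1% of the 17753 genes tested. All 4 Western-diet mice were above both Ctrl mice for 7 of the 10 genes, and for 11.6% of all genes. The median change of the 10 genes from Ctrl to Pre-T was 3.16 on the log2 scale, beside 0.13 over all genes tested. The test called Lpl and Lgals3 higher, 2 of 10 members, where it called 0.361% of all genes in either direction and 0.0958% as higher, and 9 of the 10 members had an unadjusted p under 0.05, as did 12.5% of all genes. DESeq2 called 8 members, all but Fabp5 and Msr1, beside 3.18% of all genes. In Post-T against Ctrl, 7 members were higher and Msr1 was lower in both mice, as were 15.3% and 24.6% of all genes. The median change was 2.44 beside 0.04, and the test called Lgals3, Atp6v0d2 and Gpnmb higher, with 1.86% of all genes called and 0.580% called higher. DESeq2 called 4 members there, Lpl beside these 3, and 4.56% of all genes. With Atp6v0d2, at 0 in Ctrl, set to the bound given below, both medians stayed the same. The 14 monocyte markers summed to 1014 to 1103 CPM in Ctrl macrophages, with 8 and 9 of them detected and Ly6c2 and Chil3 at 0, to 2209 to 2390 in Pre-T, with all 14 detected, and to 1184 to 1923 in Post-T, with 13 and 10 detected and Ly6c2 at 0. Their part in the changes was not tested. With 2 mice a group, both counts moved when 1 mouse was left out, which also leaves a lone mouse in its group. Calls could be lost this way while the change held its size. The Pre-T change stayed between 1.88 and 2.01 for Lgals3 and between 2.75 and 3.33 for Lpl, but ran from 3.02 to 7.84 for Mmp12. In Pre-T against Ctrl no member passed without Ctrl 1, Ctrl 2, Pre-T 1 or Pre-T 2. More passed without Post-T 1 or Post-T 2, which enter the fit only through the shared spread. For Post-T against Ctrl none passed without Ctrl 1 or Ctrl 2, fewer without Pre-T 1 or Pre-T 2, and more without either Post-T mouse. The share of all genes called in these fits is not given here, so a rise cannot be read as one of the members. In both comparisons no member was called with clusters at a resolution of 2 or with unnamed clusters rich in macrophage markers counted as macrophages.

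**Figure D1:**
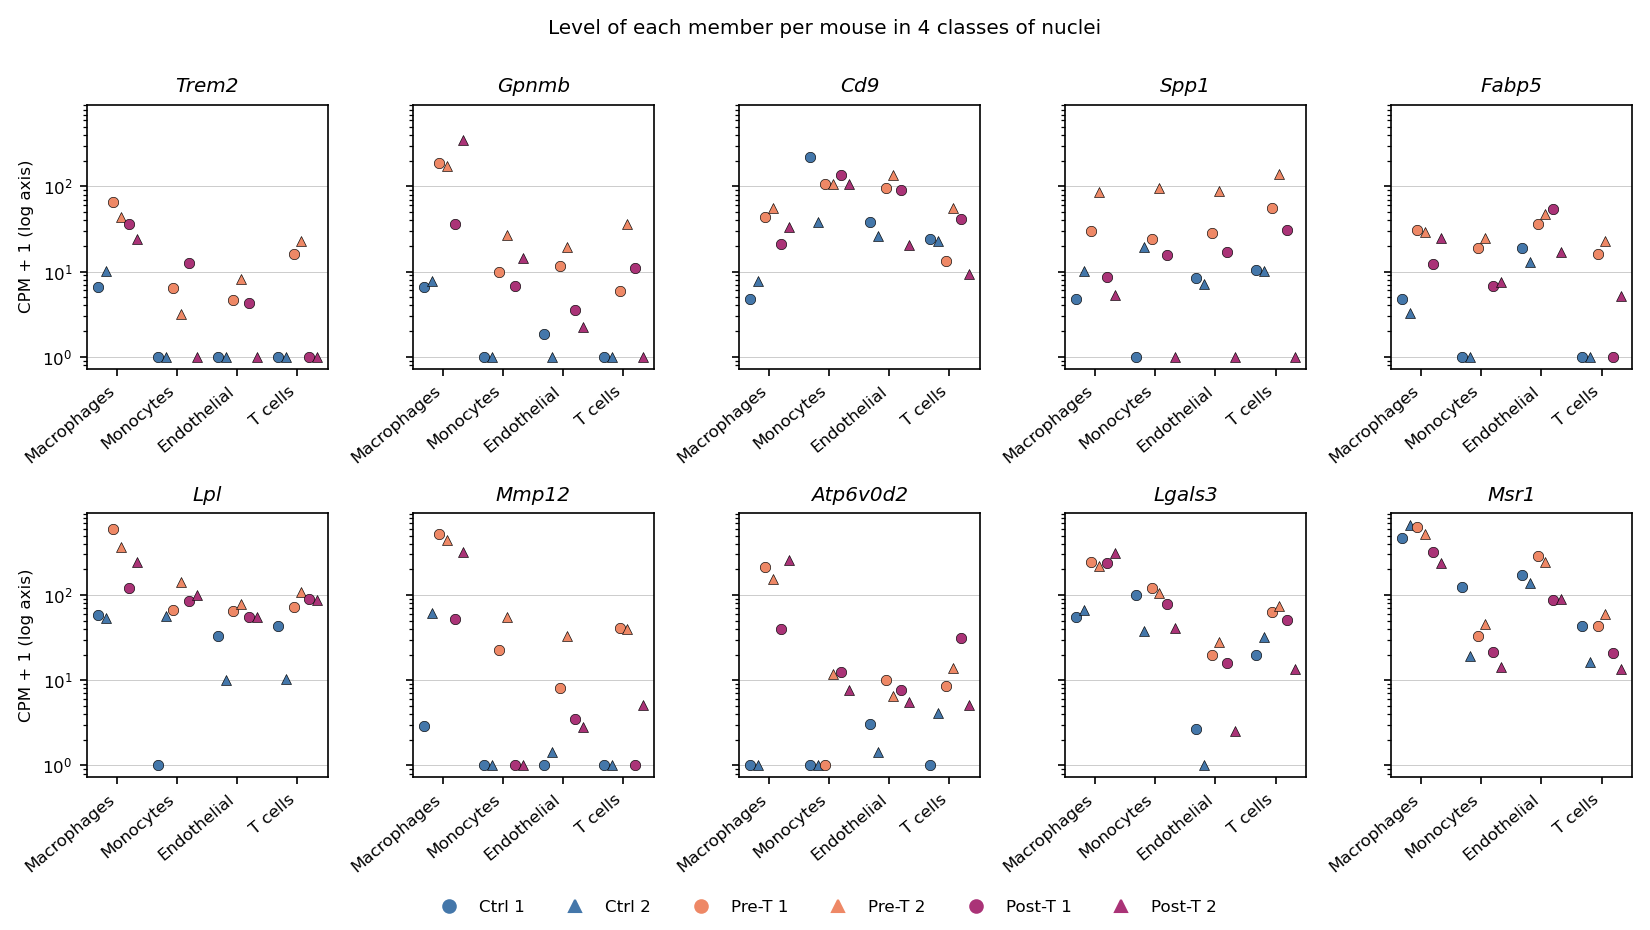
Level of each gene (CPM + 1, log axis) in macrophages, monocytes, endothelial nuclei and T cells, with 1 point per mouse and colours for Ctrl, Pre-T and Post-T. In macrophages the 4 Western-diet mice lie above both Ctrl mice for 7 of 10 genes, whereas the points of Cd9 lie lower in macrophages than in monocytes in each mouse.

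The first of the receptors is Trem2, which binds lipids and lipoproteins and signals through the adaptor Tyrobp. Its level in macrophages was 5.61 and 9.08 CPM in Ctrl, 63.8 and 42.5 in Pre-T and 34.9 and 22.8 in Post-T. All 4 Western-diet mice were above both Ctrl mice, and both Pre-T mice were above both Post-T mice. The level in the Western-diet mice was 41.0 ± 17.2 CPM (SD, n = 4), against 7.35 ± 2.45 (n = 2) in Ctrl, where it rested on 3 and 4 UMIs. The change was 2.81 (SE 0.48) in Pre-T and 2.18 (SE 0.50) in Post-T, with edgeR adjusted p of 0.0510 and 0.0672, so neither passed that test, while DESeq2 called Trem2 in Pre-T.

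Msr1, the class A scavenger receptor that takes up modified lipoproteins, did not share the pattern. It stood at 466 and 661 CPM in Ctrl, 622 and 515 in Pre-T and 319 and 237 in Post-T. The Pre-T mice lay within the range of the Ctrl mice and both Post-T mice lay below it. The change was -0.02 (SE 0.30, adjusted p = 0.991) in Pre-T and -0.83 (SE 0.30, adjusted p = 0.222) in Post-T by edgeR.

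Among the proteins of the lysosome and the cell surface, Gpnmb, a glycoprotein of phagocytes under lysosomal load, had 5.61 and 6.81 CPM in Ctrl, 186 and 175 in Pre-T and 35.5 and 354 in Post-T. All Western-diet mice were above both Ctrl mice, but the Post-T mice lay on either side of the Pre-T mice. The change was 4.81 (SE 1.08, adjusted p = 0.0933) in Pre-T and 5.17 (SE 1.09, adjusted p = 0.0490) in Post-T by edgeR. The Post-T change was 2.64 when Post-T 2 was left out and 6.06 when Post-T 1 was, and leaving out Pre-T 1 gave an adjusted p of 0.0581, Pre-T 2 0.0758, Ctrl 1 0.441 and Ctrl 2 0.376.

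Atp6v0d2, a subunit of the proton pump that acidifies lysosomes, had no UMI in the macrophages of either Ctrl mouse, where 3 counts would be 5.61 and 6.81 CPM. It reached 211 and 153 CPM in Pre-T and 38.7 and 255 in Post-T. The groups did not overlap, and Post-T 1 was again the lowest of the Western-diet mice. With 3 counts over the Ctrl group as a floor, it was at least 59.2-fold higher in Pre-T (adjusted p = 0.0521 by edgeR, not passed) and at least 47.8-fold higher in Post-T (adjusted p = 0.0275). The Pre-T bound was 26.7-fold without Ctrl 1 and 32.5-fold without Ctrl 2. Of the 296 Post-T UMIs 235 came from Post-T 2, and the Post-T bound was 12.6-fold when Post-T 2 was left out and 83.0-fold when Post-T 1 was. The Post-T call was lost without Ctrl 1 (at least 21.6-fold, adjusted p = 0.324) and without Ctrl 2 (at least 26.2-fold, adjusted p = 0.239).

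Cd9 is a tetraspanin, a membrane organizer present on many cell types. In macrophages it had 3.74 and 6.81 CPM in Ctrl, 42.3 and 54.3 in Pre-T and 20.3 and 32.6 in Post-T. The Western-diet mice were again all above Ctrl, which held 2 and 3 UMIs, and the changes of 3.18 (SE 0.55, adjusted p = 0.0510) and 2.51 (SE 0.58, adjusted p = 0.0672) did not pass edgeR's test.

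The lipid handling genes were Lpl, the lipase that frees fatty acids from triglyceride-rich lipoproteins, and Fabp5, a fatty acid carrier of the cytosol. Lpl had 58.0 and 52.2 CPM in Ctrl, 591 and 368 in Pre-T and 119.8 and 247 in Post-T. Both Pre-T mice were above both Post-T mice, which were above both Ctrl mice. Lpl rose in Pre-T by 3.07 (SE 0.45, adjusted p = 0.0333 by edgeR), and in Post-T its change was 1.93 (SE 0.44, adjusted p = 0.0657). The Pre-T change stayed between 2.75 and 3.33 when any 1 mouse was left out, while leaving out Ctrl 1 gave an adjusted p of 0.517, Ctrl 2 0.270, Pre-T 1 0.283 and Pre-T 2 0.275. Fabp5 had 3.74 and 2.27 CPM in Ctrl, from 2 UMIs and 1 UMI, 29.8 and 27.8 in Pre-T and 11.4 and 23.9 in Post-T. The groups of Western-diet and Ctrl mice did not overlap. The ratio of pooled counts was 9.31 in Pre-T over Ctrl, with a 95% counting interval of 3.11 to 45.8, and 5.21 in Post-T, with 1.66 to 26.3, and the edgeR adjusted p were 0.0842 and 0.118.

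Of the secreted proteins, Lgals3, the galactose-binding lectin galectin-3, had 54.2 and 65.8 CPM in Ctrl, 244 and 221 in Pre-T and 237 and 308 in Post-T. The 4 Western-diet mice lay close together and well above Ctrl, at 252 ± 38.2 CPM (SD, n = 4). Lgals3 rose by 1.92 in Pre-T (SE 0.31, adjusted p = 0.0471 by edgeR) and by 2.38 in Post-T (SE 0.32, adjusted p = 0.0088). By edgeR it was the only member called in both comparisons, which share the Ctrl mice, while DESeq2 called Lgals3, Lpl, Gpnmb and Atp6v0d2 in both. The Pre-T change lay between 1.88 and 2.01 with any 1 mouse left out, and the Post-T change between 2.11 and 2.60. The Pre-T call was lost without Ctrl 1 (adjusted p = 0.531), Ctrl 2 (0.269), Pre-T 1 (0.397) or Pre-T 2 (0.287), and the Post-T call without Ctrl 1 (0.207) or Ctrl 2 (0.116).

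Mmp12, the macrophage elastase that cuts elastin, had 1.87 and 61.3 CPM in Ctrl, 516 and 437 in Pre-T and 52.0 and 317 in Post-T. The Pre-T mice were above all others, and Post-T 1 was below Ctrl 2. The 27 UMIs of Ctrl 2 came from 1.36% of its macrophages. The change was 3.95 (SE 1.07, adjusted p = 0.151) in Pre-T and 2.84 (SE 1.05, adjusted p = 0.231) in Post-T by edgeR. With any 1 mouse left out the Pre-T change ran from 3.02 to 7.84 and the Post-T change from 0.95 to 6.72, the highest of both when Ctrl 2 was left out.

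Spp1 encodes osteopontin, a phosphoprotein of the matrix that bile duct cells also make. Its level in macrophages was 3.74 and 9.08 CPM in Ctrl, 28.6 and 85.9 in Pre-T and 7.61 and 4.35 in Post-T. Only the Pre-T mice stood apart, and the Post-T mice lay within the Ctrl range. The change was 3.18 (SE 0.73, adjusted p = 0.0999) in Pre-T and 0.17 (adjusted p = 0.963) in Post-T by edgeR.

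From Pre-T to Post-T no member was called by edgeR, with 3 at an unadjusted p under 0.05, beside 10.00% of all genes, and 0 called by DESeq2, where edgeR called 0.00563% of all genes and DESeq2 1.06%. In 7 of the 10 members both Post-T mice were below both Pre-T mice, as in 33.9% of all genes. The lowest change was that of Spp1 at -3.01 (SE 0.63, adjusted p = 0.164), and the median over the members was -0.65 beside -0.06 over all genes. Lgals3 and Gpnmb had changes of 0.46 and 0.36. With either Post-T mouse left out edgeR called some members, from fits with a lone Post-T mouse. The share of all genes called in those fits is not given here. Gpnmb then changed in opposite directions, since it had 35.5 CPM in Post-T 1 and 354 in Post-T 2, against 186 and 175 in Pre-T.

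The same 10 genes were then measured in other classes. Endothelial nuclei and T cells can carry RNA from other cells of the same library, and the share of such RNA was not estimated. In each of the 6 mice Trem2, Gpnmb, Lpl, Mmp12, Lgals3 and Msr1 were higher in macrophages than in endothelial nuclei and than in T cells. Atp6v0d2 was higher in macrophages than in either class in the 4 Western-diet mice. For Trem2 the endothelial level was 0 and 0 CPM in Ctrl, 3.57 and 7.09 in Pre-T and 3.32 and 0 in Post-T, below the macrophage level of each mouse. For Gpnmb it was 0.823 and 0, 10.7 and 18.2, and 2.49 and 1.22 CPM. For both genes the endothelial level was highest in Pre-T 2.

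**Figure D2:**
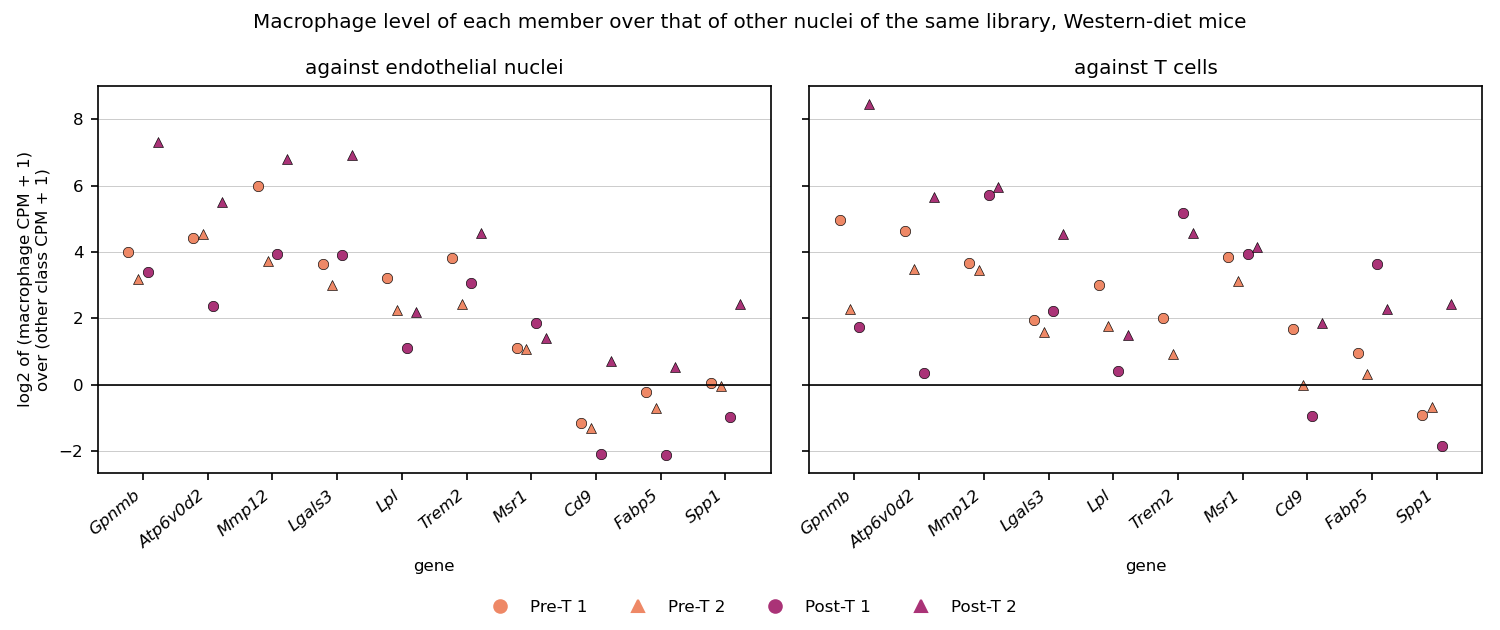
Log2 ratio of the macrophage level to the level in endothelial nuclei (left) and in T cells (right), each as CPM + 1, with 1 point for each of the 4 Western-diet mice and a line at equal levels. Gpnmb, Mmp12, Atp6v0d2 and Lgals3 lie above the line in each of the 4 mice, while Cd9, Spp1 and Fabp5 scatter around or below it against endothelial nuclei.

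Cd9, Spp1 and Fabp5 were not particular to macrophages in level. Cd9 was higher in macrophages than in endothelial nuclei in 1 of 6 mice and than in monocytes in none. Spp1 was higher than in endothelial nuclei in 3 of 6 mice and than in T cells in 1. In Pre-T 2, for example, Spp1 had 85.9 CPM in macrophages, 87.6 in endothelial nuclei and 138 in T cells. Fabp5 was above endothelial nuclei in 1 mouse and above T cells in 6. The 8 cholangiocyte markers summed to 108 to 116 CPM in Ctrl macrophages, 28.0 to 41.7 in Pre-T and 7.61 to 18.4 in Post-T, with Krt19 at 0 in each Western-diet mouse and Krt19, Epcam, Sox9, Cftr, Onecut1 and Bicc1 all at 0 in Post-T 2. The 11 hepatocyte markers, all with UMIs in the macrophages of each mouse, summed to 14290 to 18349 CPM in Ctrl, 4418 to 11781 in Pre-T and 3899 to 16119 in Post-T.

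In endothelial nuclei all 10 members were higher in both Pre-T mice than in both Ctrl mice, beside 32.8% of all genes, with a median change of 2.58. None was called by edgeR, where 0.290% of all genes were called, and all 10 had an unadjusted p under 0.05, as did 13.5% of all genes. DESeq2 called Lgals3, beside 3.88% of all genes. In Post-T against Ctrl none was called in endothelial nuclei either, beside 8.16% of all genes, with 5 at an unadjusted p under 0.05, beside 22.9% of all genes, and 0 called by DESeq2, which called 11.7%. Markers of the monocyte and macrophage lists moved in endothelial nuclei too. The 14 monocyte markers summed to 58.9 to 73.2 CPM in Ctrl, with 14 and 12 of them detected, to 249.9 to 437 in Pre-T, with all 14 detected, and to 33.0 to 139 in Post-T, with 14 and 11 detected, and the 18 macrophage markers to 1040.2 to 1497 in Ctrl, 1446 to 1762 in Pre-T and 841 to 1013 in Post-T, with 16 to 18 detected. Of these C1qa, a complement subunit of macrophages, had 9.05 and 5.24 CPM in Ctrl, 41.1 and 136 in Pre-T and 72.2 and 4.28 in Post-T. The largest parts of the macrophage sum were Mrc1 and Mertk. Mrc1 had 529 and 736 CPM in Ctrl and 786 and 572 in Pre-T, and Mertk 288 and 418, and 266 and 234. Whether their UMIs came from other cells was not tested, so the macrophage sum is no measure of RNA from macrophages. Marco was at 0 in both Pre-T mice, Cd163 in Pre-T 2 and Post-T 2, and Ly6c2 and Chil3 in Ctrl 2 and Post-T 2. Their part in the changes was not tested. From Pre-T to Post-T endothelial Msr1 fell by 1.23 (SE 0.23, adjusted p = 0.0390 by edgeR), beside 3.16% of all genes called and 1.73% called lower. DESeq2 called Msr1 too, beside 6.81% of all genes. The edgeR call was lost with any 1 mouse left out, at adjusted p of 0.0519 to 0.306 and changes of -1.40 to -1.10. Endothelial Msr1 stood at 169.9 and 136 CPM in Ctrl, 287 and 247 in Pre-T and 87.2 and 88.6 in Post-T.

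In T cells 9 of the 10 members were higher in both Pre-T mice than in both Ctrl mice, and the share of all genes doing so is not given here. The median change was 2.81, or 1.78 with members at 0 in Ctrl set to their bounds, beside 0.14 over all genes. An unadjusted p under 0.05 was found for 7 members by edgeR, beside 13.5% of all genes. It called 4 of the 10 members higher in Pre-T than in Ctrl, beside 4.55% of all genes called and 2.21% called higher. These were Spp1, up by 3.35 (SE 0.65, adjusted p = 0.000327), Lpl, up by 1.92 (SE 0.52, adjusted p = 0.0167), Mmp12, at least 7.04-fold higher (adjusted p = 0.00125), and Gpnmb, at least 3.58-fold higher (adjusted p = 0.0438), the latter pair from 0 UMIs in Ctrl. The 21 Pre-T UMIs of Gpnmb were 2 in Pre-T 1 and 19 in Pre-T 2, or 4.98 and 34.8 CPM, so its bound rested on Pre-T 2, without which the 2 UMIs lay under the floor (adjusted p = 0.822 by edgeR). The bound of Gpnmb was 2.15-fold without Ctrl 1, 1.43-fold without Ctrl 2 and 6.26-fold without Pre-T 1. Its call was lost without Ctrl 1, Ctrl 2, Post-T 1 or Post-T 2. Leaving out Pre-T 2 also ended the calls of Spp1 (2.40, adjusted p = 0.110) and Lpl (1.51, adjusted p = 0.234), and leaving out Ctrl 2 those of Lpl (1.04, adjusted p = 0.568) and Mmp12 (at least 2.81-fold, adjusted p = 0.0551). Without Ctrl 1 the change of Lpl was 3.26 and the bound of Mmp12 4.23, both called. T cells had 39.8 and 38.5 CPM of Mmp12 in Pre-T, far below the 516 and 437 of macrophages of the same mice. The summed macrophage markers in T cells moved the same way, from 316 to 343 CPM in Ctrl to 722 to 1430 in Pre-T and 206 to 480 in Post-T, with 16 of the 18 markers detected in each Pre-T mouse. Lpl stayed higher in Post-T (2.07, SE 0.57, adjusted p = 0.0244, beside 2.66% called and 1.13% called higher), and Spp1 fell from Pre-T to Post-T by 3.18 (SE 0.75, adjusted p = 0.00726, beside 2.04% called and 0.938% called lower). The Post-T call of Lpl was lost without Ctrl 2 (1.19, adjusted p = 0.581), Post-T 1 (adjusted p = 0.0605) or Post-T 2 (adjusted p = 0.480). Its change was 3.41 without Ctrl 1. The fall of Spp1 was not called without Pre-T 2 (-2.21, adjusted p = 0.409) or Post-T 2 (-1.78, adjusted p = 0.614). DESeq2 called none of these members in T cells, beside 1.22%, 1.02% and 0.609% of all genes in the 3 comparisons. The part of RNA from other cells in these changes was not tested.

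Whether the change in macrophages differed from that in endothelial nuclei of the same mice was tested with a class by group term and the mouse as a block. In Pre-T against Ctrl edgeR called 2 members, beside 1.95% of all genes, and 7 members had an unadjusted p under 0.05, beside 7.89% of all genes. Of these 7, 4 had a positive difference, a larger change in macrophages, and Lgals3, Mmp12 and Trem2 a negative one. The value of Trem2 (-3.35, SE 1.47) is no bound and depends on the prior count, since Ctrl endothelial nuclei had 0 UMIs of it, and with the floor of 3 counts its endothelial level was at least 8.39-fold higher in Pre-T. Atp6v0d2 changed more in macrophages (adjusted p = 0.000507), from 0 UMIs in Ctrl macrophages to 211 and 153 CPM, while endothelial nuclei went from 2.06 and 0.436 to 8.92 and 5.57 CPM. Lgals3 changed by 2.57 less in macrophages than in endothelial nuclei on the log2 scale (difference -2.57, SE 0.64, adjusted p = 0.00646), where endothelial nuclei had 1.65 and 0 CPM in Ctrl, or 4 UMIs in all, and 18.7 and 26.8 in Pre-T. The difference of Lgals3 was -6.28 without Ctrl 1, -1.57 without Ctrl 2 (adjusted p = 0.650, not called) and -2.14 without Pre-T 2 (adjusted p = 0.344, not called). With T cells in the place of endothelial nuclei no member was called and the difference of Lgals3 was 0.53. For Lpl the difference was 1.33 (SE 0.41, adjusted p = 0.0530). In Post-T against Ctrl only Atp6v0d2 was called (adjusted p = 0.000153), beside 4.05% of all genes, with 3 members at an unadjusted p under 0.05, beside 11.4% of all genes. Leaving out Ctrl 1 or Pre-T 2 left a single member in Pre-T, Lgals3 and Atp6v0d2 in turn, and leaving out either Post-T mouse gave 4. For Post-T the count was 0 when Ctrl 1 or Post-T 2 was left out and 4 when Post-T 1 was. For Gpnmb and Mmp12 the difference from endothelial nuclei did not pass in either comparison, at 0.09 and -1.99 in Pre-T and 3.39 and -0.12 in Post-T, and their endothelial levels in Ctrl rested on 2 UMIs and 1 UMI.

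Over the 13 named classes, 7 of the 10 genes had their highest mean level in macrophages, and the next class differed from gene to gene. Means cover only mice with at least 20 nuclei of a class, so classes were averaged over different mice. NK cells lacked both Post-T mice, and neutrophils lacked Ctrl 2 and Post-T 1, so this order mixes class with group. Trem2 had 29.8 ± 21.9 CPM (SD, n = 6) in macrophages and then 14.2 ± 28.4 (n = 4) in neutrophils. Gpnmb had 127 ± 138 in macrophages and 22.0 ± 23.3 (n = 4) in NK cells, and Msr1 470 ± 167 in macrophages and 169 ± 82.8 (n = 6) in endothelial nuclei. For Trem2, Gpnmb, Lpl, Mmp12, Atp6v0d2, Lgals3 and Msr1 alike, the ranges over mice of macrophages and of the next class overlapped, since the Ctrl macrophages were low or the next class was high. Spp1 was highest in cholangiocytes, at 586 ± 291 CPM (n = 5), and Cd9 in neutrophils, at 218 ± 153 (n = 4), followed by monocytes at 119 ± 60.1 (n = 6). Fabp5 had 34.0 ± 6.06 CPM in neutrophils (n = 4), 30.02 ± 17.2 in endothelial nuclei and 16.5 in macrophages. The neutrophil values came from only 23 to 31 nuclei a mouse.

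Monocytes had low levels of Trem2, Gpnmb and Atp6v0d2. Among their markers Ly6c2 had UMIs only in Pre-T 2, at 6.46 CPM, and Vcan reached at most 7.11 CPM. Ccr2 had 197 and 166 CPM in Ctrl, 37.3 and 40.9 in Pre-T and 20.2 and 26.5 in Post-T. Ace had 172 and 517, 334 and 271, and 121 and 225 CPM. A cluster of 527 nuclei led by F13a1, Ccr2 and Vcan among other genes had 12 monocyte markers raised. It also carried dendritic cell markers and stayed unnamed, so its levels are not part of this class. Trem2 had 0 and 0 CPM in Ctrl monocytes, 5.33 and 2.15 in Pre-T and 11.6 and 0 in Post-T, below macrophages in each mouse. Gpnmb had 0 and 0, 8.89 and 25.8, and 5.78 and 13.2 CPM, and Atp6v0d2 0 and 0, 0 and 10.8, and 11.6 and 6.62. These levels lay below those of macrophages in every Western-diet mouse. The Ctrl monocytes were 26 and 40 nuclei, where 3 counts would be 73.9 and 55.4 CPM, so levels of the size seen in the Western-diet mice were not detectable there. Cd9 had 222 and 36.9 CPM in Ctrl, 107 and 106 in Pre-T and 136 and 106 in Post-T, above macrophages in each mouse. Lgals3 had 121 and 106 CPM in Pre-T monocytes and 78.0 and 39.7 in Post-T, and Lpl 65.8 and 139.98, and 83.8 and 99.3, below the macrophages of each of these mice. Spp1 was above macrophages in Ctrl 2, from 1 UMI, in Pre-T 2 and in Post-T 1, from 5 UMIs.

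In monocytes edgeR called no member in Pre-T against Ctrl, beside 2.30% of all genes, with 3 members at an unadjusted p under 0.05, beside 10.96% of all genes, and 0 called by DESeq2, which called 1.34%. For Post-T against Ctrl it also called none, beside 1.58%, with 1 member at an unadjusted p under 0.05, beside 9.29% of all genes, and 0 by DESeq2, which called 1.64%. All 4 Western-diet mice were above both Ctrl mice for 3 of the 10 members, Gpnmb, Fabp5 and Lpl, and for 13.7% of all genes. In Ctrl monocytes Trem2, Gpnmb, Fabp5, Mmp12 and Atp6v0d2 had no UMI, so no fold change or median is given. From Pre-T to Post-T edgeR called Mmp12 and Spp1 lower, beside 2.30% of all genes called and 1.32% called lower. Mmp12 had 21.3 and 53.8 CPM in Pre-T, from 12 and 25 UMIs, and 0 in both Post-T mice, at least 6.23-fold lower (adjusted p = 0.0040). Spp1 had 23.1 and 94.8 CPM in Pre-T and 14.5 and 0 in Post-T, a change of -2.42 (SE 0.73, adjusted p = 0.0408). With any 1 mouse left out the change of Spp1 ran from -6.91 to -1.06, and these fitted values are no bounds. Neither Mmp12 nor Spp1 was called without Pre-T 2 or without Post-T 1, and only Mmp12 without Post-T 2. DESeq2 called neither, beside 0.870% of all genes. The summed macrophage markers also lay lower in Post-T monocytes, at 1447 to 1917 CPM summed in Pre-T, with 15 and 16 of the 18 detected, and 1032 to 1410 in Post-T, with 16 and 13 detected, beside 978 to 1305 in Ctrl, with 11 and 8 detected. Clec4f, which is part of that sum, had 8 and 36 UMIs in Pre-T and 1 and 0 in Post-T. It was called lower (adjusted p = 0.0063 by edgeR, ratio of pooled counts 0.0469, 95% counting interval 0.00116 to 0.276), and Cd163 was at 0 in each monocyte sum. The call of Clec4f held in 9 of 15 alternatives. With any 1 mouse left out its fitted change ran from -6.55 to -2.40, and these values are no bounds. The part of these markers in the changes of Mmp12 and Spp1 was not tested. In the same mice Spp1 was also lower in Post-T in T cells, as given above, and the monocytes of Pre-T and Post-T lay in different clusters.

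The genes were then followed within single nuclei. To compare nuclei of different depth each was thinned to 500 UMIs. At least 3 of the 10 members were found together in 36 of 613 and 43 of 933 Pre-T macrophages and in 5 of 422 and 20 of 370 Post-T macrophages, and in none of the 315 and 294 Ctrl macrophages. As shares these were 5.87% (exact 95% interval 4.15 to 8.04), 4.61% (3.36 to 6.16), 1.18% (0.386 to 2.74) and 5.41% (3.33 to 8.23), against 0% with upper bounds of 1.16% and 1.25% in Ctrl. Post-T 1 had the lowest share of the Western-diet mice, and its interval overlapped only those of Ctrl. The share was 4.27% ± 2.12 (SD, n = 4) in the Western-diet mice and 0% in both Ctrl mice.

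**Figure D3:**
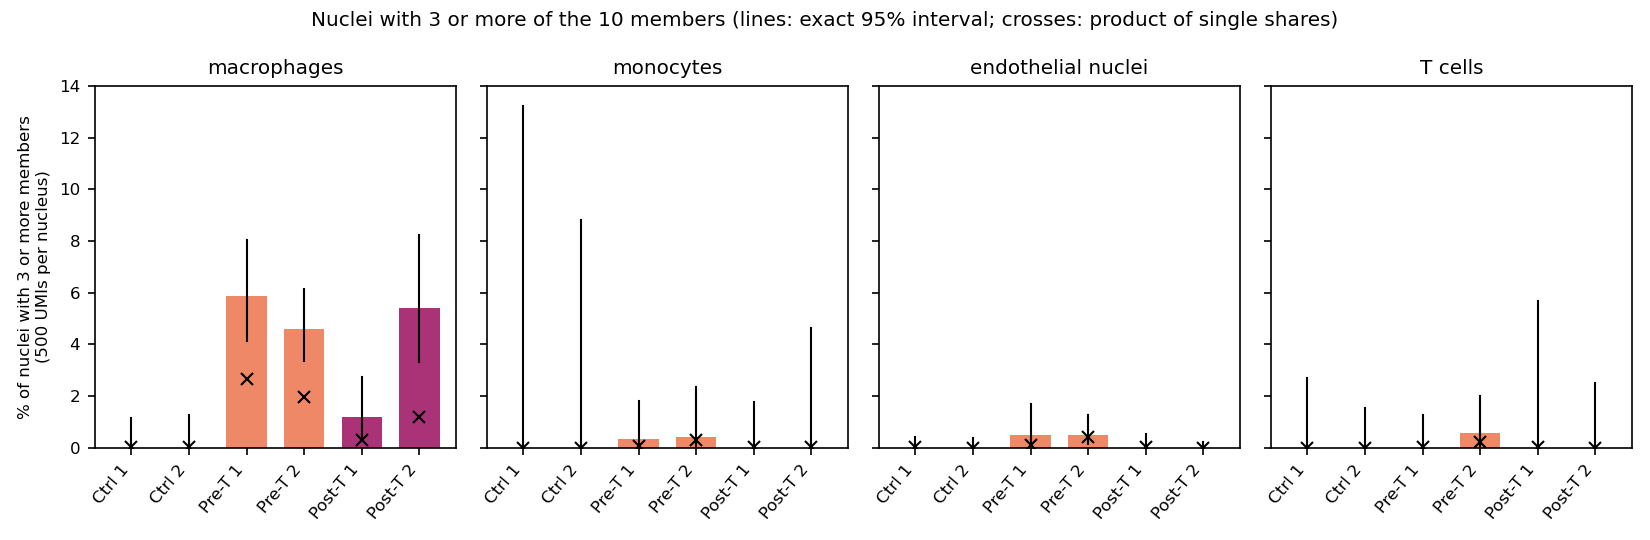
Share of nuclei with at least 3 of the 10 members after thinning each nucleus to 500 UMIs, by class and mouse, with exact 95% binomial intervals, and crosses for the share that the product of the single shares gives. Macrophages of Pre-T 1, Pre-T 2 and Post-T 2 reach 5.87%, 4.61% and 5.41%, and no mouse exceeds 0.552% in the other 3 classes.

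In macrophages the co-detection went beyond what the single shares give. Were the members found independently of each other within a mouse, the shares would be 2.64% and 1.97% in Pre-T and 0.283% and 1.20% in Post-T, below the observed share in each of the 4 mice. In monocytes the observed shares were 0.327% and 0.426% in Pre-T, from 1 nucleus a mouse, where the product gives 0.0625% and 0.277%. In endothelial nuclei they were 0.471% and 0.489% in Pre-T, from 2 and 4 nuclei, where it gives 0.103% and 0.405%. Both classes had 0% in the other mice. An excess over the product in Pre-T was thus not limited to macrophages, though in these classes it rested on few nuclei. At full depth, with median depths of 1126.5 to 3261 UMIs, at least 3 members were found in 0.952% and 1.36% of Ctrl macrophages, 27.6% and 29.6% of Pre-T and 17.3% and 20.5% of Post-T macrophages. The product of the shares then gave 27.4% and 29.2% in Pre-T, so the excess in Pre-T was small at full depth. A single Pre-T or Post-T 2 macrophage carried up to 9 of the 10 members at full depth, and a Ctrl macrophage up to 3.

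Pairs of members show which genes met in the same nuclei. Over the macrophages of the 4 Western-diet mice at 500 UMIs, 23 of the 45 pairs had a product of shares of at least 5 nuclei, and 17 of these were found together more often than the product gives, with a median ratio of 1.37. The highest ratio was that of Mmp12 and Atp6v0d2, found together in 38 nuclei where the product gives 7.48. Gpnmb and Mmp12 were found together in 37 nuclei against 7.94, and Gpnmb and Lgals3 in 30 against 8.71. Atp6v0d2 and Lgals3 met in 28 nuclei against 8.76, and Mmp12 and Lgals3 in 39 against 14.4. These 4 genes thus met in the same nuclei in all the pairs among them, since Gpnmb and Atp6v0d2, whose product of 4.73 fell short of the minimum, met in 36 nuclei. By mouse, Gpnmb and Atp6v0d2 met in 11 and 9 Pre-T nuclei against 1.19 and 1.43, and in 3 and 13 Post-T nuclei against 0.171 and 1.95, so every Western-diet mouse showed the excess.

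**Figure D4:**
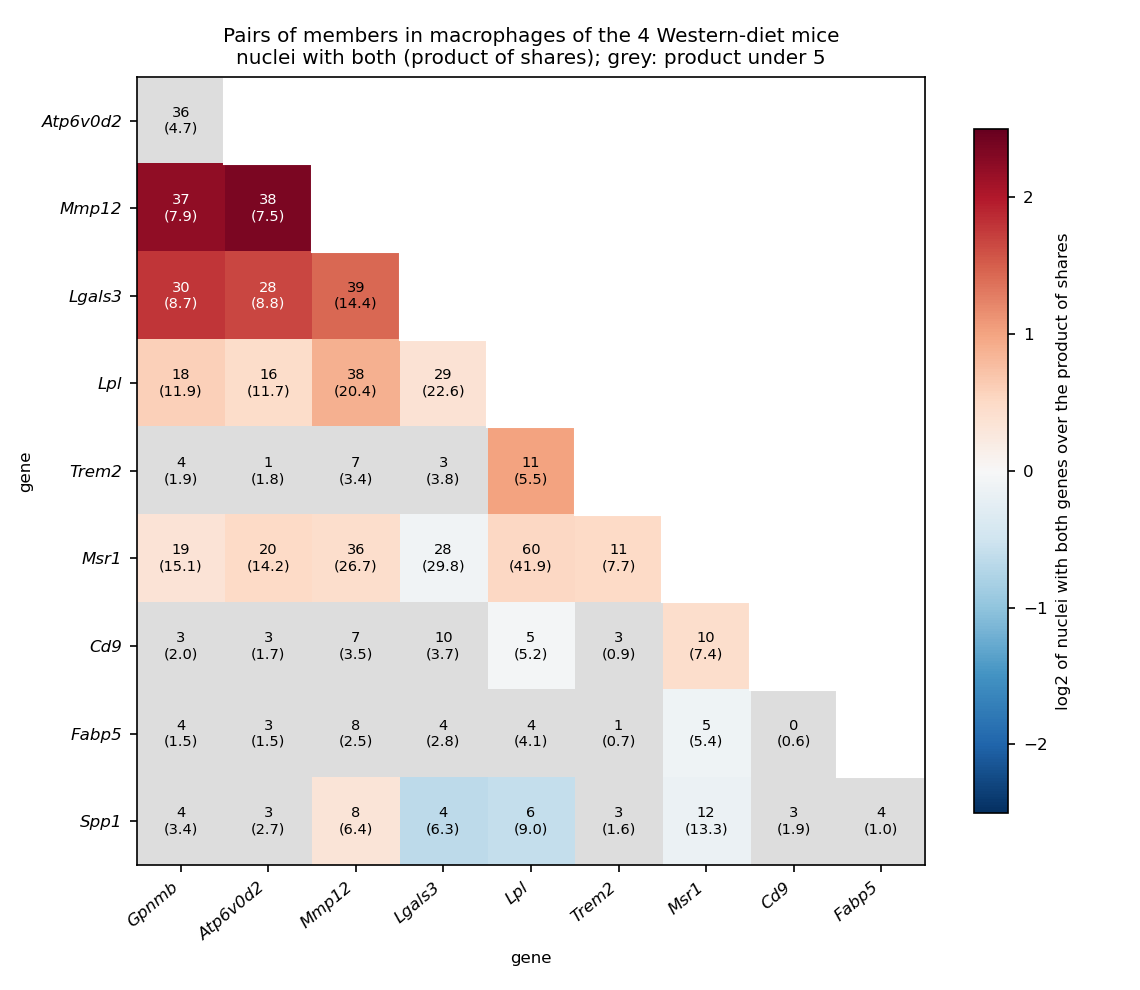
Number of Western-diet macrophages with UMIs of both genes of a pair, with the number the product of shares gives in brackets, at 500 UMIs a nucleus, coloured by the log2 ratio where that product is at least 5 nuclei and grey elsewhere. The darkest red cells join Mmp12, Atp6v0d2, Gpnmb and Lgals3, and the pairs of Spp1 with Lgals3 and with Lpl are blue.

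The pairs of Spp1 with these 4 genes and with Lpl lay nearer to the product. At 500 UMIs it met Lgals3 in 4 nuclei against 6.30, Lpl in 6 against 9.02, Mmp12 in 8 against 6.40 and Gpnmb in 4 against 3.43. At full depth it met Lgals3 in 74 nuclei against 67.0, Lpl in 61 against 71.9, Mmp12 in 42 against 42.5 and Gpnmb in 23 against 25.6, so the pairs with Lgals3, Mmp12 and Gpnmb lay on opposite sides of the product at the 2 depths. Gpnmb and Atp6v0d2 met in 139 against 29.1 at full depth. Trem2 was found in too few nuclei for most pairs at 500 UMIs. It met Lpl in 11 against 5.5, and at full depth it met Gpnmb in 72 against 20.1. In endothelial nuclei only 3 pairs reached the minimum at 500 UMIs, with ratios from 0.702 to 1.19, and in monocytes none did. The ratios are a description, since nuclei of 1 mouse are not replicates and deeper nuclei show more genes of any kind.

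Clec4f, the Kupffer cell lectin, was lower in the Western-diet macrophages, and it is among the 18 markers by which macrophages were named. It had 1487 and 1848 CPM in Ctrl, 565 and 554 in Pre-T and 9.51 and 38.0 in Post-T. The groups were ordered without overlap, and the change was -1.61 (adjusted p = 0.218) in Pre-T and -5.97 (SE 0.63, adjusted p = 0.0055) in Post-T by edgeR. The Post-T call held in 12 of 17 alternatives. With any 1 mouse left out the Post-T change ran from -7.30 to -5.21. In Pre-T the members were not limited to nuclei without Clec4f. At least 3 of them were found in 6.76% and 4.81% of Pre-T macrophages with a UMI of Clec4f and in 5.42% and 4.47% of those without, and the former were deeper, with median depths of 3318 and 2966 against 1807 and 1713 UMIs. Clec4f itself had up to 82.0 CPM in endothelial nuclei and 112 in T cells, both in Pre-T 2, so single UMIs of it can be background.

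The clusters of macrophages, built without the 10 genes, differed in the members. Cluster 7 held nearly all Ctrl macrophages, 314 and 286 of its 604 nuclei. Clusters 5, 9 and 11 were of Pre-T mice, cluster 12 held 365 nuclei of Post-T 2 and 21 of Post-T 1, and cluster 13 held 368 of Post-T 1. With most clusters from 1 group or 1 mouse, a cluster may be a library as much as a state.

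In the Pre-T mice, clusters 5 and 11 combined the members with Clec4f. In cluster 5 the 265 nuclei of Pre-T 1 and 366 of Pre-T 2 had 259 and 250.01 CPM of Gpnmb, 762 and 508 of Mmp12, 291 and 213 of Atp6v0d2, 12.1 and 55.2 of Spp1 and 831 and 803 of Clec4f. In cluster 9 the 194 and 297 nuclei of these mice had 34.8 and 19.7 CPM of Gpnmb, 36.9 and 4.54 of Atp6v0d2, 39.1 and 99.9 of Spp1 and 21.7 and 77.2 of Clec4f. In cluster 11, of low depth, the 151 and 267 nuclei had 143 and 148 CPM of Gpnmb, 196 and 126 of Atp6v0d2, 113 and 196 of Spp1 and 339.5 and 404 of Clec4f. Gpnmb and Atp6v0d2 were both highest in cluster 5 and lowest in cluster 9 in each Pre-T mouse, and Spp1 was highest in cluster 11 and lowest in cluster 5.

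The low values of Post-T 1 lay in its main cluster, cluster 13. Without the upper limit on genes Post-T 1 had 28 macrophages and 783 monocytes, so most nuclei of that cluster were then not named macrophages. The 368 nuclei of Post-T 1 in cluster 13 had 2.73 CPM of Gpnmb, from 4 UMIs, 4.09 of Atp6v0d2 and 38.9 of Mmp12, with 231 of Lgals3 and 32.7 of Trem2. The 21 nuclei of Post-T 1 in cluster 12 had 370 CPM of Gpnmb, from 15 UMIs, 641 of Atp6v0d2 and 395 of Mmp12. The 365 nuclei of Post-T 2 in that cluster had 328, 245 and 314 CPM of these 3 genes. Of the 61 UMIs of Atp6v0d2 in Post-T 1 macrophages, 6 lay in cluster 13 and 26 in cluster 12, and the rest in the few other macrophages of that mouse. Post-T 1 thus had few nuclei with high Gpnmb, Atp6v0d2 and Mmp12, whereas its Trem2 and Lgals3 did not depend on them.

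**Figure D5:**
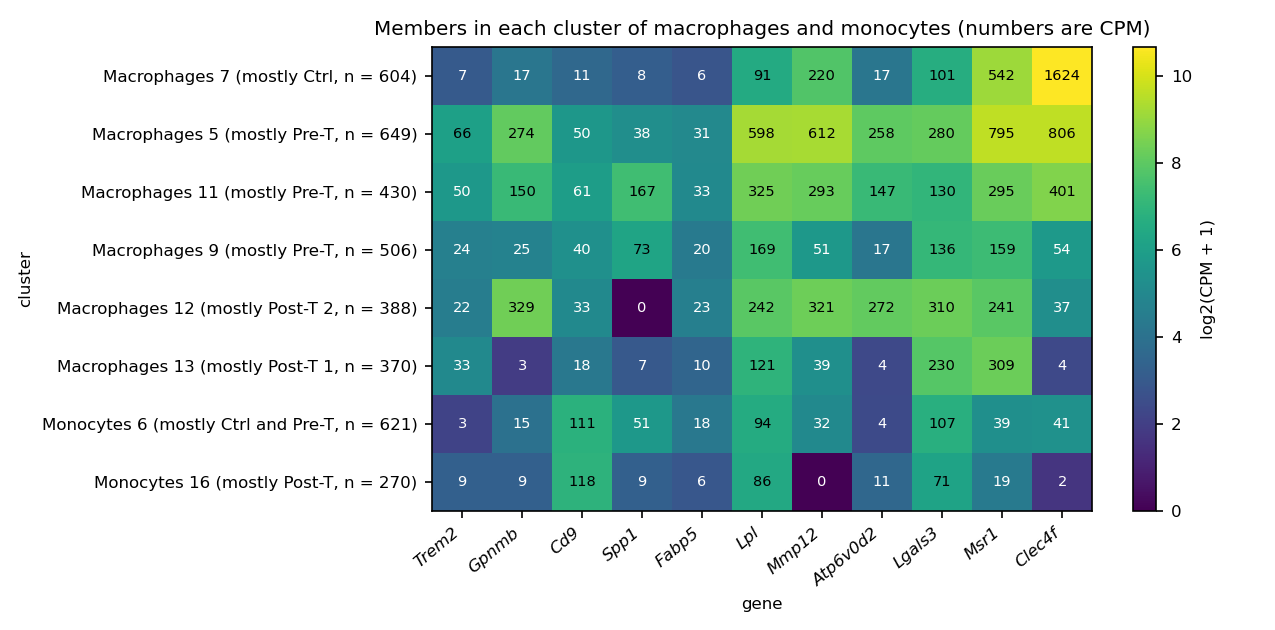
Level of the 10 members and of Clec4f in the 6 macrophage and 2 monocyte clusters, as log2(CPM + 1) in colour and CPM in figures, over all nuclei of a cluster. Clusters 5, 11 and 12 are high in Gpnmb, Mmp12 and Atp6v0d2, cluster 13 is low in them, and in cluster 7 most Mmp12 comes from its few nuclei of Western-diet mice.

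For the genes that met in single nuclei the bases before the gene start are shown, since members that move together may share letters there. RefSeq promoters (GRCm38.p6, 250 bases before the start, 5′ to 3′ on the strand of the gene) were at hand for Trem2, Gpnmb, Cd9, Spp1, Lgals3 and Mmp12, which is 6 of the 10. They were searched on both strands for CACGTG and TCACATG, bound by the MiT factors that drive lysosomal genes, TGANTCA of AP-1, GAGGAAGT of PU.1 and the direct repeat bound by PPAR with its partner RXR, none of which is contained in another. Capitals mark a match. Gpnmb, at chr6:49036268-49036517 on the plus strand, Trem2, at chr17:48346151-48346400 on the plus strand, and the start of Mmp12 with 2 matches, at chr9:7347124-7347373 on the plus strand, are printed as the lysosomal glycoprotein, the lipid receptor and the elastase of the set. In the GENCODE annotation of that build the protein-coding genes span chr6:49036546-49070929, chr17:48346401-48354147 and chr9:7344381-7369499, so the printed window of Mmp12 lies inside its span.
Gpnmb: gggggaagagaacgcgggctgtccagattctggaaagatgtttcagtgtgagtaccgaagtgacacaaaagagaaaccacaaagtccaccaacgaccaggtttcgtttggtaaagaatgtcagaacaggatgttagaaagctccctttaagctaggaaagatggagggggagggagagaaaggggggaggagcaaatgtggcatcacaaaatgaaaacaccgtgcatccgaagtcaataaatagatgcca
Trem2: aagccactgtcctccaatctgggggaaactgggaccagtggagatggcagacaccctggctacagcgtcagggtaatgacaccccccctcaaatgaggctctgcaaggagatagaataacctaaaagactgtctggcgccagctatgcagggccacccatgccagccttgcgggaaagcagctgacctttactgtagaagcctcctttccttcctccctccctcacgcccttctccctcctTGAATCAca
Mmp12: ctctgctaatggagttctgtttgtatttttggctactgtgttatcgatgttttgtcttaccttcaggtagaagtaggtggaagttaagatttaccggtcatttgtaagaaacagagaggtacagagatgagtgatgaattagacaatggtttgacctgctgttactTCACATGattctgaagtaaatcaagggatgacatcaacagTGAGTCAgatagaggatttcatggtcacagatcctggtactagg

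Trem2 held TGAATCA 9 bases before its start. The printed Mmp12 promoter held TCACATG 84 and TGAGTCA 44 bases before the start, and that of its other start ACTTCCTC, which is GAGGAAGT on the other strand, 88 bases before. Spp1 held GAGGAAGT 113 bases before 1 of its starts, and Gpnmb, Cd9 and Lgals3 held none of the 5 motifs in these windows. Of 32851 promoters of this length, 6.75% held TGANTCA, 6.02% CACGTG, 3.50% TCACATG, 2.44% GAGGAAGT and 0.0335% the direct repeat. The matches are a description of these letters and not sites of binding, and no motif was shared by Gpnmb, Mmp12 and Lgals3.

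Genes of the same biology outside the 10 were counted in lists. They are given for macrophages and monocytes only, without DESeq2 and without fits that leave out a mouse. Of 8 genes of Trem2 signalling, such as Tyrobp and Syk, and of 21 genes of the lysosome and its transcription factors, edgeR called none in macrophages in any of the 3 comparisons, with medians of 0.38 and 0.62 in Pre-T against Ctrl. Of 16 genes of lipid uptake, storage and efflux, 1 was called higher in Pre-T than in Ctrl, beside 0.0958% of all genes called higher, namely Cd36, the fatty acid translocase. It had 46.8 and 61.3 CPM in Ctrl, 255 and 264 in Pre-T and 79.3 and 88.0 in Post-T, a rise of 2.24 (SE 0.31, adjusted p = 0.0264). Only the Pre-T mice were high in Cd36, and the change to Post-T, -1.41 (adjusted p = 0.163), did not pass edgeR's test. Of the 15 tested of 16 other genes that mark lipid- or scar-associated macrophages, 1 was called higher in Pre-T, Itgax, the integrin CD11c, at 1.87 and 6.81, 69.8 and 79.6, and 77.4 and 83.7 CPM (a rise of 4.11, SE 0.52, adjusted p = 0.0264). The Ctrl level of Itgax rested on 1 and 3 UMIs. Clec7a of that list was not analysed here.

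In macrophages 3 lipid genes were called higher in Post-T than in Ctrl and none lower, beside 0.580% of all genes called higher. Pparg, the nuclear receptor of fat storage, had 63.6 and 109 CPM in Ctrl, 605 and 586 in Pre-T and 1782 and 645 in Post-T, a change of 3.99 (adjusted p = 0.00748 by edgeR). Fabp4, a fatty acid carrier, rose from 0 and 2.27 CPM, which is 0 UMIs and 1 UMI, to 64.0 and 40.2 (adjusted p = 0.00852 by edgeR). The last was Abcg1, a cholesterol exporter named outside the rule after its values were seen, at 52.4 and 113.5 CPM in Ctrl, 368 and 309 in Pre-T and 318 and 346 in Post-T (a rise of 2.21, SE 0.37, adjusted p = 0.0220 by edgeR). Of the other markers 3 were higher by edgeR, which were Itgax (4.44, adjusted p = 0.00590), Ms4a7 (2.74, adjusted p = 0.0136) and Capg, an actin capping protein. Capg had 0 and 6.81 CPM in Ctrl, from 0 and 3 UMIs, and 48.2 and 37.0 in Post-T. Igf1, a growth factor, fell by 2.38 (adjusted p = 0.0374), from 929 and 1056 CPM in Ctrl to 88.1 and 242 in Post-T. From Pre-T to Post-T none of the 4 lists had a call, and the smallest p belonged to Tyrobp (-1.75, adjusted p = 0.145), Cd36 and Hilpda, a lipid droplet protein (-2.22, adjusted p = 0.294).

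In monocytes 4 of the 21 genes of the lysosome list were higher in Pre-T than in Ctrl by edgeR, beside 2.30% of all genes called in either direction, and the median of the list was 0.82 beside 0.59 over all genes. They were the proteases Ctsd (adjusted p = 0.000522), Ctsz (2.10, adjusted p = 0.0219) and Ctsb (1.48, adjusted p = 0.00669) and the acid lipase Lipa (adjusted p = 0.0114). Ctsb, the best counted, had 296 and 406 CPM in Ctrl and 702 and 881 in Pre-T, while Ctsd, Lipa and Ctsz rested on 2 to 5 UMIs over both Ctrl mice. Apoc1 was called higher (1.26, adjusted p = 0.0154), although its Pre-T mice, at 681 and 3743 CPM, lay on either side of the Ctrl mice, at 1478 and 905. In monocytes the macrophage markers summed to 978 to 1305 CPM in Ctrl and 1447 to 1917 in Pre-T. The hepatocyte markers there summed to 19976 and 13569 CPM in Ctrl and 3894 and 13356 in Pre-T. Their part in these changes was not tested. From Pre-T to Post-T Tyrobp fell by 2.27 (adjusted p = 3.18e-06), from 345 and 364 CPM to 66.5 and 66.2, and Cd68, a lysosomal membrane protein of phagocytes, fell by 2.74 (adjusted p = 0.00527). Syk, the kinase behind Tyrobp, was higher in Post-T than in Ctrl by 1.41 (adjusted p = 0.0121).

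The genes most like Trem2 and Gpnmb in level were sought over 62 sums of 13 classes and 6 mice among 7446 genes, as Pearson correlations of log2(CPM + 1). Gpnmb was the gene most like Trem2 (r = 0.72), followed by Vsig4 (0.66), Siglec1 (0.66), Aif1 (0.66) and C1qa (0.65). The genes most like Gpnmb were C1qb (0.76), Fcgr1 (0.74), Trem2 (0.72), Aif1 (0.71) and Fcgr4 (0.70). Vsig4, C1qa, C1qb and Fcgr1 are among the markers by which macrophages were named, and the sums of 1 mouse share a library and its depth. Of the other members Mmp12 was the most like Trem2 (0.64) and Cd9 the least (0.25).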

How the data were processed

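The authors counted reads of 10x Genomics libraries with Cell Ranger 6.1.1 on mm10 (per the labels and the study's methods) and deposited raw UMI counts per gene and barcode for each mouse. Whether intronic reads were counted is not given in the sources used here. Nuclei with more than 200 and fewer than 5000 genes and under 5% mitochondrial UMIs were kept, as in the study, and clustered with scanpy 1.11.5 (Python 3.11.15, leidenalg 0.10.2, igraph 0.11.9) on 2000 variable genes without members or listed genes, 30 components, 15 neighbours and a resolution of 1, without integration. A class needed at least 3 of its markers raised 2-fold in 3% or more of a cluster's nuclei. Scrublet called 5 of 39012 nuclei, so it had not worked and no doublets were removed. UMIs summed per mouse and class were tested in edgeR 4.0.16 (R 4.3.3, limma 3.58.1), TMM, at least 3 counts, 3 residual degrees of freedom. DESeq2 1.42.0 was an alternative. The mice are separate animals. The members, lists and tests were chosen with earlier results of these data known. Named were the members, Clec4f, at most 5 called genes in each direction over the 4 lists of a comparison (where none of the lists had a call, the 3 with the smallest p) and the 5 genes most like Trem2 and Gpnmb with a mean of at least 20 CPM in macrophages. The tests were checked on simulated data. Replicate numbers share only a number (correlation of deviations -0.22, -0.04 and 0.14 in macrophages).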

Additional observations from a re-analysis of the deposited data

Results flagged for a closer look

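The change in macrophages differed from that in endothelial nuclei of the same mice for Atp6v0d2, by 8.94 on the log2 scale in Pre-T and 8.88 in Post-T against Ctrl. These fitted values depend on the prior count, since no Ctrl macrophage had a UMI, and are no bound. For Lgals3 the difference was -2.57 in Pre-T, from 4 UMIs in Ctrl endothelial nuclei, and it ran from -6.28 to -1.57 with any 1 mouse left out. For Clec4f, the Kupffer cell gene, it was -2.70 in Pre-T (adjusted p = 1.08e-09 by edgeR) and -3.38 in Post-T (adjusted p = 0.000193). With any 1 mouse left out the difference of Clec4f ran from -3.67 to -1.28 in Pre-T, where it was not called without Pre-T 2 (adjusted p = 0.722), and from -6.00 to -0.81 in Post-T, where it was not called without Post-T 1 (adjusted p = 1).

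Some members were higher than in each Ctrl mouse in all Western-diet mice with at least 20 nuclei of a class, in classes outside the comparisons above, and none of these differences was tested. The share of all genes doing the same in these classes is not given here, so the members listed may follow the general rate. In macrophages that share was 11.6% and in monocytes 13.7%. In NK cells, with 46 and 54 nuclei in the only Western-diet mice with enough nuclei, Pre-T 1 and Pre-T 2, the lowest level was 76.1 CPM of Spp1, 91.8 of Lgals3 and 101.5 of Msr1, each from 6 to 11 UMIs a mouse. In hepatocytes, with 5 nuclei in Pre-T 2 and 3 in Post-T 1, which were left out, the lowest level of Lpl was 84.5 CPM, from 4 UMIs of 31 nuclei in Pre-T 1, with 111 CPM in Post-T 2 against 49.3 and 5.86 in Ctrl. In cholangiocytes, the class with the highest Spp1, with 1 nucleus in Post-T 2, which was left out, the lowest levels were 522 CPM of Spp1, against 267 and 433 in Ctrl, 72.5 of Cd9, against 59.7 and 65.4, and 47.1 of Lpl, against 36.9 and 34.3. In fibroblasts and stellate cells the lowest level of Cd9 was 22.2 CPM, against 11.5 and 7.59 in Ctrl.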

How the results depend on the processing

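Counts of members called moved with the settings while directions mostly held. Apart from DESeq2, the share of all genes called under each alternative is not given here. A move in the count of members may therefore follow calls over all genes. Over 26 single values and 421 alternatives, 281 stayed on their side of the threshold with the same direction, 65 passed newly, 73 no longer passed and 2 changed sign. These were the differences between macrophages and T cells, in the place of endothelial nuclei, of Lgals3 in Pre-T (0.53) and of Clec4f in Post-T (1.98). In macrophages, Pre-T against Ctrl, 2 members became 8 with DESeq2, 8 without TMM, 9 without the filter, 9 with a replicate block, 4 with macrophages and monocytes as 1 class, 7 with each nucleus named on its own and 5 without the highest doublet scores, and 0 with the members among the variable genes, at a resolution of 2, without the upper limit on genes or with unnamed clusters added. For Post-T against Ctrl 3 became 8 without the filter, 5 with the block and 0 at a resolution of 2 or with unnamed clusters added, and for Post-T against Pre-T 0 became 3 without the filter. Leaving out each mouse in turn gave 0 to 9, 0 to 8 and 0 to 5 members, where the lone mouse of a group was assumed to vary like the others.

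In monocytes, 0 members in Pre-T became 4 with macrophages and monocytes as 1 class and 1 at a resolution of 2, and 0 in Post-T became 3 as 1 class. The 2 of Post-T against Pre-T became 0 with DESeq2, as 1 class or at a resolution of 2, and 1 with the block, with the members among the variable genes or without the upper limit, and 0 to 2 without 1 mouse, where the first 2 comparisons gave 0 to 0. For the difference from endothelial nuclei, 2 members in Pre-T became 0 with T cells or with each nucleus named on its own and 1 at a resolution of 2 or without the upper limit (1 to 4 without 1 mouse), and 1 in Post-T became 0, 0 and, without the upper limit, 3 (0 to 4 without 1 mouse). The share of macrophages with at least 3 members, 4.27 percentage points above Ctrl, was 22.6 without thinning, 0.459 with at least 2 UMIs a gene, 9.86 with at least 2 members and 3.73 to 5.30 without 1 mouse. In monocytes 0.188 became 3.71, 0.00 and 1.72 in the same order, 0.0984 with the members among the variable genes, 0.570 with each nucleus named on its own, 0.281 without the upper limit and 0.109 to 0.251 without 1 mouse. The causes were not tested.

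The replicate numbers pair no mice, and a paired reading is not made. The removal of Scrublet's calls gave no value, since it called too few, and the highest doublet scores and the unnamed clusters were alternatives chosen after seeing the data. Named one by one, Ctrl 1 had no monocyte, so monocyte counts could not be fitted there. Depth limits Ctrl most, with 1 to 4 UMIs of Trem2, Gpnmb, Cd9, Spp1 and Fabp5 a mouse in macrophages.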
